A study of Mus musculus with 12 samples.

Results

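The genes described here are 52 genes of the cell division cycle and DNA replication, chosen by name: 26 genes of the G1/S transition and DNA replication, 23 mitotic genes and 3 genes of CDK inhibitors. They were read in the livers of 12 wild-type C57BL/6J mice, out of 41325 genes listed in each library, and all 52 were among the 16456 genes with enough reads to be tested. Control livers came from 4 mice given vehicle. The NASH vehicle livers came from 4 mice on the diet named CDAHFD (a choline-deficient, amino acid-defined, high-fat diet that causes steatohepatitis) that also received vehicle. The CDDO-Me livers came from 4 mice on the same diet that were dosed orally with CDDO-Me, bardoxolone methyl, at 10 mg/kg over a period of 8 weeks. The compound is an electrophilic triterpenoid best known as an activator of the transcription factor NRF2. The sources used here do not state age, sex, the controls' diet or the time on the diet.

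A cell that enters the cycle first makes D-type cyclins, which activate CDK4 and CDK6, and these kinases lift the block that the RB protein puts on E2F transcription factors. E2F factors then switch on the genes of replication licensing and of nucleotide supply, and a later wave, driven by the DREAM and MuvB complexes with B-MYB and FOXM1, switches on the mitotic genes. Most hepatocytes of an adult liver rest outside the cycle, can re-enter it after injury, and often copy their DNA without dividing. Macrophages, bile duct cells, stellate cells and lymphocytes divide too, so in whole liver these transcripts can come from any of them, and fewer cells of a type and less RNA per cell cannot be told apart.

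In NASH vehicle livers 42 of the 52 genes were higher than in control livers, 1 was lower and 9 did not pass the test (edgeR quasi-likelihood test, Benjamini-Hochberg adjusted p under 0.05 over all tested genes). Of all 16456 genes, 29.6% were called higher and 30.0% lower in this comparison. All 23 mitotic genes rose, with a median log2 fold change of 3.41. Of the 26 G1/S and replication genes 17 rose and 1 fell, with a median of 0.73, and 2 of the 3 CDK inhibitor genes rose. The median over all tested genes was -0.01. The CPM of the 2 groups did not overlap for 39 higher members and 1 lower member, beside 27.0% and 27.4% of all genes.

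**Figure D1:**
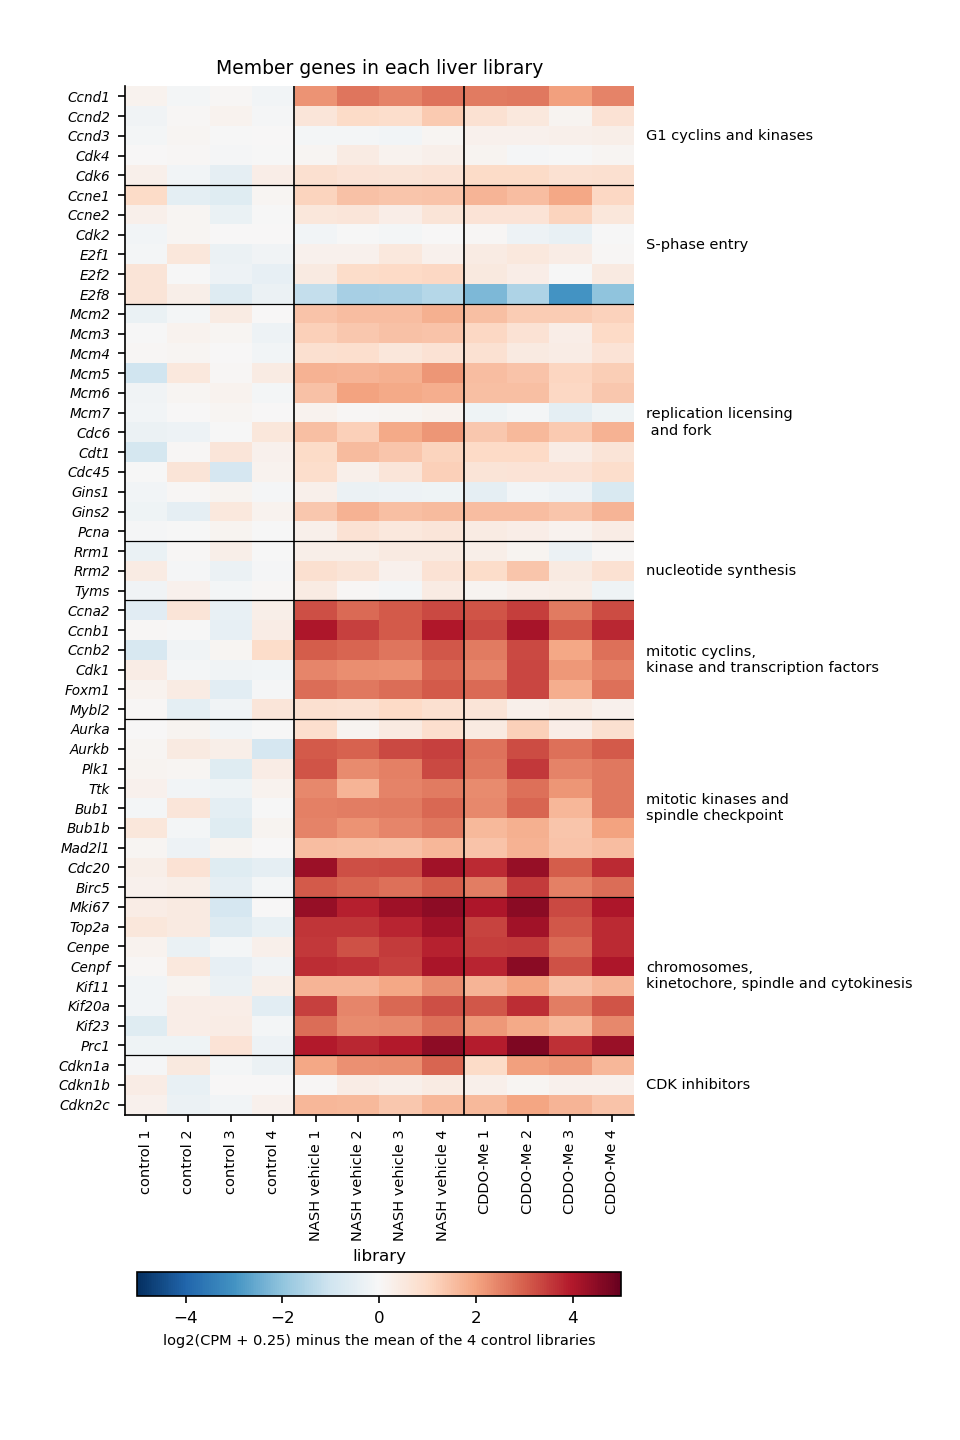
Each row is 1 of the 52 genes, grouped by role, and each column 1 of the 12 libraries, and colour gives log2(CPM + 0.25) minus the mean of the 4 control libraries. The 23 mitotic rows are red in the diet-fed groups, while E2f8 is the blue row and Ccnd3, Cdk2 and Mcm7 are near white. The added 0.25 shrinks the colour of genes with few reads in controls.

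Libraries held 28161057 to 33852338 gene reads. CPM here are reads scaled to a common library size by TMM, whose factors were 0.73 to 0.83 in controls, 1.11 to 1.31 in NASH vehicle and 0.97 to 1.2 in CDDO-Me livers. This scaling matters for small changes. With library totals alone the median of all genes in NASH vehicle against control moved from -0.01 to 0.62, 88.2% of all called genes were higher, and 51 members were called higher and 1 lower. On the authors' TPM the median was 0.58, 92.4% of calls were higher, and 51 tested members split 50 to 1. The median member stood 1.64 above the median gene with TMM and with library totals, and 0.88 above it on log2(TPM + 1), a scale that understates changes of low genes. Nothing in the labels says how the numbered replicates were housed or processed. The p-values set differences between groups against the spread among the livers of a group. Any housing or processing difference that follows the groups cannot be told apart from them.

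Cyclin D1 carried the largest change among the genes that act first. Ccnd1, whose cyclin activates CDK4 and CDK6 in response to growth signals, stood at 30, 25, 27.8 and 24 CPM in the 4 control livers. In NASH vehicle livers it was 126, 173, 151 and 176 CPM, and in CDDO-Me livers 164, 166, 111 and 150 CPM, so neither diet-fed group overlapped the controls. The rise in NASH vehicle was 2.55 ± 0.15 (log2 fold change ± SE, edgeR quasi-likelihood adjusted p = 3.6e-08). Its paralog Ccnd2 went from 10.4, 12.2, 13.4 and 11.2 CPM to 18.2, 22.8, 21.8 and 29.4 CPM, a rise of 0.97 ± 0.16. Ccnd3, the third D-type cyclin gene, read 43.1, 49.6, 44.6 and 45.9 CPM in controls and 43.0, 42.9, 41.5 and 48.9 CPM in NASH vehicle livers, with overlapping values and a difference of -0.05 (95% interval -0.21 to 0.10). That sign depends on scaling: it was 0.58 with library totals and 0.47 on TPM, both called. Its transcripts also overlap Bysl on the other strand, and on exon reads alone the gene was called lower, at -0.28.

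Per length, the make-up of the D-type cyclin transcripts changed. Ccnd1 made up 47.2 ± 3.92% (SD, n = 4) of their summed TPM in controls and 83.5 ± 1.33% in NASH vehicle livers, while Ccnd3 went from 42.3 ± 3.45% to 10.4 ± 1.3%. In CDDO-Me livers the shares were 81.3 ± 2.86% for Ccnd1 and 13.8 ± 3.08% for Ccnd3. Only 42.8% of Ccnd1 reads mapped to a single place, and with uniquely placed reads the gene was still called higher. With TMM the partner kinases moved less than Ccnd1. Cdk6 rose by 0.69 ± 0.14, from 26.8, 20.5, 16.3 and 28.2 to 39.7, 36.2, 35.3 and 37.0 CPM. Cdk4 rose by 0.24 ± 0.08, from 41.3 to 45.1 CPM in controls to 46.8 to 57.0 CPM. The Cdk4 call was lost without NASH vehicle replicate 2 (adjusted p = 0.065). Over the alternatives the rise of Cdk6 ran from 0.56 to 1.32 and that of Cdk4 from 0.18 to 1.03. Cdk4 overlaps Tspan31 on the other strand, which had 87674 reads in all, and without strand, reads from the shared stretch cannot be told apart.

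**Figure D2:**
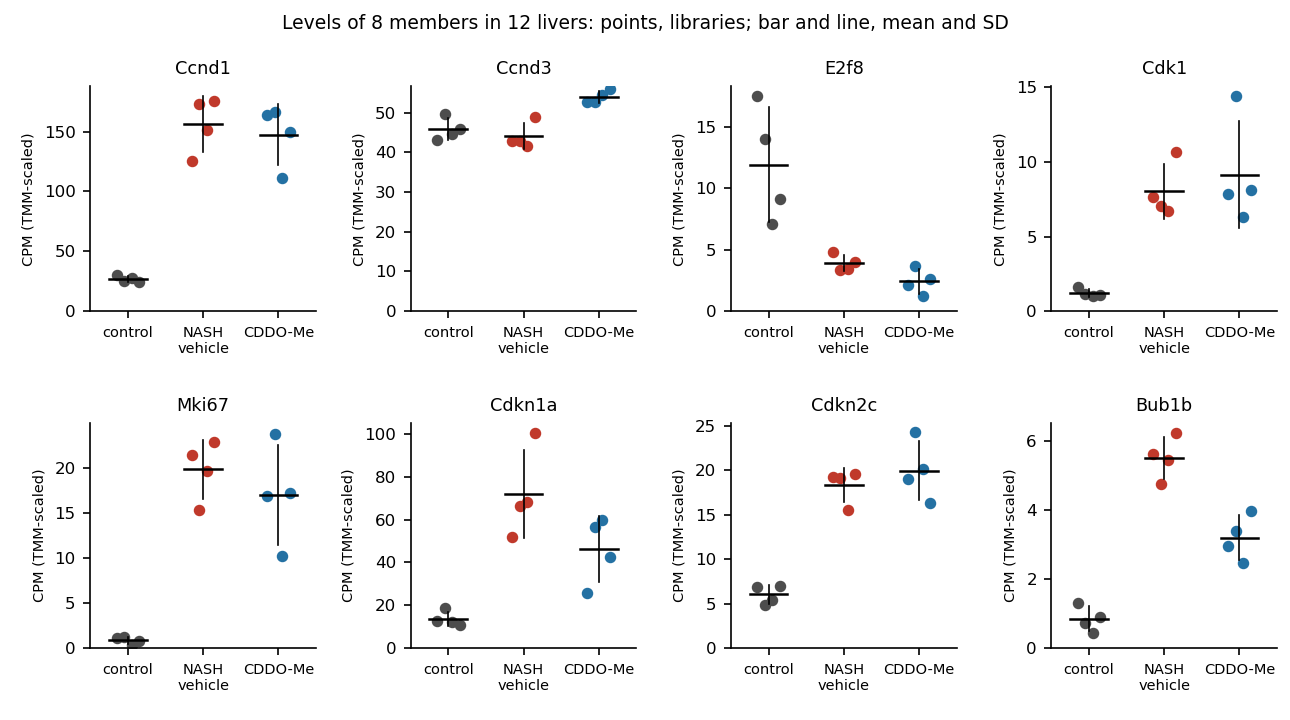
CPM of 8 genes in each library (points), with the mean (bar) and SD (line) of 4 libraries per group. Ccnd1, Cdk1, Mki67, Cdkn1a, Cdkn2c and Bub1b are above the controls in all diet-fed livers, E2f8 is below them, and Ccnd3 is highest in the 4 CDDO-Me livers.

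Genes that carry the cell into S phase changed less evenly. Ccne1, which encodes the cyclin E1 partner of CDK2, rose by 1.63 ± 0.47, from 0.922, 0.184, 0.148 and 0.402 CPM to 1.07, 1.40, 1.33 and 1.38 CPM. The second cyclin E gene, Ccne2, was at 1.00 to 1.65 CPM in controls and 1.74 to 2.20 CPM in NASH vehicle livers (0.60 ± 0.24, adjusted p = 0.042). That call was lost in 6 of the 8 fits without 1 library of either group (adjusted p up to 0.11, without control replicate 3). It was also lost in edgeR on exon reads (adjusted p = 0.06), with no filter (0.097) and with a replicate block (0.078). Under 60% of Ccne2 reads mapped to a single place, and the gene overlaps Ints8 on the other strand. Cdk2 itself read 8.76 to 10.5 CPM in controls and 8.85 to 9.89 CPM in NASH vehicle livers, a difference of -0.06 (95% interval -0.32 to 0.20) that became 0.57 with library totals. Of the E2F genes, the activator E2f2 rose by 0.88 ± 0.27, from 3.23, 1.94, 1.59 and 1.43 to 2.74, 3.93, 4.12 and 4.32 CPM. The activator E2f1 was at 5.38, 8.72, 4.74 and 5.14 CPM in controls and 6.77, 6.84, 8.42 and 6.71 CPM in NASH vehicle livers. The E2f1 difference of 0.26 ± 0.19 was not called, but became 0.50 (adjusted p = 0.018) without control replicate 2, the highest control.

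E2f8 moved the other way. It encodes an atypical E2F that represses E2F target genes and is known for its part in hepatocyte polyploidy. Control livers held 17.5, 14, 7.10 and 9.12 CPM, NASH vehicle livers 4.8, 3.38, 3.46 and 4.03 CPM, and CDDO-Me livers 2.15, 3.69, 1.2 and 2.61 CPM. All 8 diet-fed livers were below all 4 controls, with a fall of -1.61 ± 0.32 in NASH vehicle (edgeR quasi-likelihood adjusted p = 0.00075). E2f8 overlaps Gm2788 on the other strand, which had 8635 reads in all against 2043 for E2f8 and itself fell by -2.13 ± 0.27. The strand of the reads is not stated, so reads from the shared stretch cannot be told apart. Reads that cross E2f8 splice junctions summed to 358, 181 and 111 over the control, NASH vehicle and CDDO-Me libraries.

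Replication licensing genes rose as a group except for 3 of 12. The MCM2 to MCM7 proteins form the ring that is loaded on origins and unwinds DNA, and 5 of their 6 genes rose. Mcm6 went from 3.88, 4.8, 5.07 and 4.16 CPM to 12.7, 18.5, 17.1 and 16.5 CPM (1.85 ± 0.15), and Mcm5 from 0.960, 3.23, 2.29 and 3.00 to 7.93, 7.67, 8.15 and 10.9 CPM (1.87 ± 0.29). Mcm2 went from 2.46, 2.95, 4.37 and 3.22 to 9.06, 9.70, 9.89 and 11.6 CPM (1.63 ± 0.17). None of these 3 overlapped between the groups. Mcm3 rose by 1.41 ± 0.17, from 3.88, 4.52, 4.26 and 3.31 to 9.51, 10.6, 11.3 and 11 CPM, and Mcm4 by 0.76 ± 0.14, from 4.61, 4.75, 4.55 and 4.02 to 8.05, 8.22, 6.73 and 7.5 CPM.

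Mcm7 was the exception among the subunits. It read 17.2, 19.1, 20 and 18.8 CPM in controls and 21, 19.5, 19.9 and 21.1 CPM in NASH vehicle livers, a difference of 0.12 (95% interval -0.08 to 0.32) that was called at 0.74 with library totals. Per length, Mcm7 was 48.7 ± 1.51% of the summed TPM of the 6 subunits in controls and 27.6 ± 1.89% in NASH vehicle livers. The ratio of the highest to the lowest subunit fell from 10.5 ± 3.37 to 3.17 ± 0.33 within a library, so the 6 transcripts were closer to equal in the diet-fed livers. Mcm7 overlaps Cops6 and Ap4m1 on the other strand, and Cops6 has 32348 reads against 6865 for Mcm7, and without strand, reads from the shared stretches cannot be told apart.

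**Figure D3:**
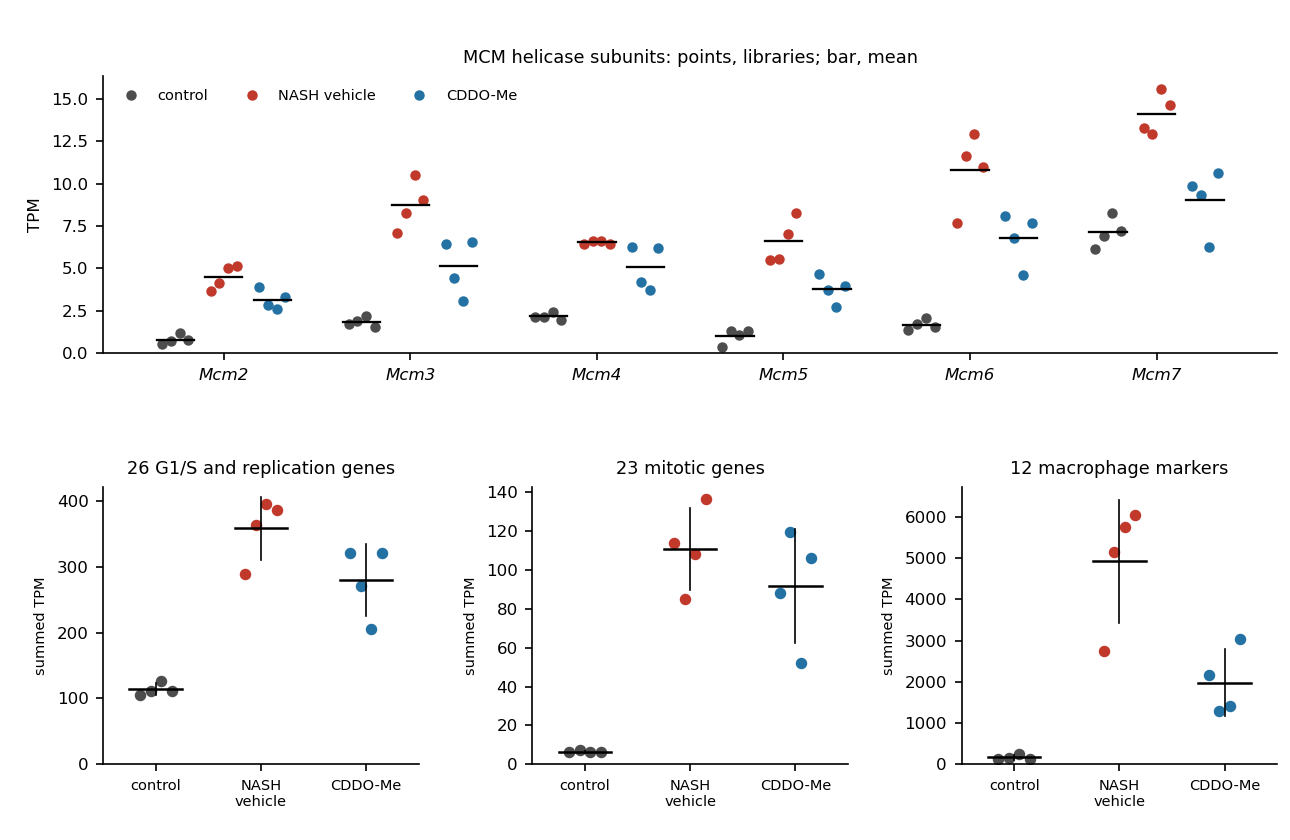
Upper panel: TPM of the 6 MCM subunit genes in each library (points) with the mean of 4 (bar). Lower panels: TPM summed over 26 G1/S and replication genes, 23 mitotic genes and 12 macrophage markers, with mean and SD. On this scale Mcm7 is also above the controls. The median of all genes is 0.58 in log2 in NASH vehicle against control and -0.19 in CDDO-Me against NASH vehicle.

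Among the loading factors, Cdc6 rose by 2.72 ± 0.48 from 0.0768 to 0.358 CPM in controls to 0.687 to 1.64 CPM, and Cdt1 by 1.25 ± 0.30. Under 60% of Cdt1 reads mapped to a single place. For the fork, Gins2 rose by 1.56 ± 0.20, though only 15.6% of its reads mapped to a single place. Pcna, the sliding clamp of the replication fork, rose by 0.54 ± 0.10, from 35.7, 36.7, 41.1 and 36.9 to 45.0, 61.5, 54.7 and 57.7 CPM. Its values did not overlap between the groups, and it had the highest median TPM of all 52 genes in controls (26). The helicase cofactors Cdc45 (0.78 ± 0.34, adjusted p = 0.060) and Gins1 (-0.13 ± 0.20) were not called. Gins1 turned to 0.49 with library totals. Of the nucleotide synthesis genes, Rrm2, the regulated subunit of ribonucleotide reductase, went from 5.99, 4.24, 3.63 and 4.25 to 7.90, 7.01, 5.20 and 7.5 CPM (0.61 ± 0.22, adjusted p = 0.030). The Rrm2 call was lost without any of 6 libraries (adjusted p = 0.057 to 0.076), and Rrm1 (0.35 ± 0.15) and Tyms (0.21 ± 0.17) were not called.

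Mitotic genes showed by far the larger changes. Ccnb1, whose cyclin B1 drives entry into mitosis, stood at 0.307, 0.277, 0.148 and 0.447 CPM in controls and 8.53, 5.47, 4.17 and 8.40 CPM in NASH vehicle livers (4.49 ± 0.38, edgeR quasi-likelihood adjusted p = 6.4e-07). Its kinase gene Cdk1 went from 1.61, 1.11, 1.04 and 1.07 to 7.63, 7.03, 6.73 and 10.7 CPM (2.72 ± 0.28). Ccna2, the cyclin of S and G2 phase, went from 0.384, 1.2, 0.481 and 0.894 to 8.53, 6.38, 7.49 and 9.07 CPM (3.43 ± 0.32). Every NASH vehicle liver was above every control for each of these 3. Foxm1, the transcription factor of the mitotic wave, went from 0.461, 0.6, 0.185 and 0.358 to 4.14, 3.68, 4.10 and 5.09 CPM (3.41 ± 0.38). Mybl2, the gene of B-MYB, changed least among the regulators, from 0.653, 0.369, 0.518 and 1.07 to 1.28, 1.21, 1.5 and 1.25 CPM (1.00 ± 0.34). The Mybl2 call was lost without control replicate 2 (adjusted p = 0.054) or NASH vehicle replicate 3 (0.052), and the gene had the largest share of intron reads of the 52, 28.2%.

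All 9 mitotic kinase and checkpoint genes rose. The largest rises were those of Cdc20, the activator of the anaphase-promoting complex (4.19 ± 0.45), and Bub1, a kinase of the spindle checkpoint (4.13 ± 0.58). The smallest were those of Mad2l1, a checkpoint protein (1.61 ± 0.14), and Aurka, the centrosome kinase (0.62 ± 0.22). The Aurka values overlapped between the groups, at 3.55 to 4.29 and 4.23 to 7.13 CPM, and its call was lost without any of 5 libraries (adjusted p = 0.05 to 0.082). Reads that cross Aurka splice junctions gave another picture: 5, 5, 8 and 12 in controls and 87, 60, 76 and 114 in NASH vehicle livers, out of 85 to 101 and 154 to 266 reads of the gene. In CDDO-Me livers the junction reads were 84, 120, 49 and 89. They are raw counts, given with no test and chosen after their values were seen. Aurkb had no read in control replicate 4 and Bub1 none in control replicate 3, where a count of 0 allows up to 3 reads.

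The 8 genes of chromosome condensation, kinetochores, spindle and cytokinesis rose with a median of 4.29. Mki67, the proliferation antigen that coats mitotic chromosomes, read 1.11, 1.2, 0.333 and 0.805 CPM in controls and 21.5, 15.3, 19.7 and 22.9 CPM in NASH vehicle livers (4.54 ± 0.34). Top2a, which untangles DNA before chromosomes separate, read 1.42, 1.29, 0.481 and 0.626 against 13.2, 13.4, 15.8 and 20.3 CPM (4.04 ± 0.35). Both stood more than 3 log2 units above the controls at the lower end of their 95% intervals, 3.79 and 3.28. Prc1, which bundles the microtubules of the central spindle (4.84 ± 0.37), and Cenpf, a kinetochore protein (4.82 ± 0.42), rose most, and Kif23 (2.94 ± 0.31) and Kif11, the spindle motor (2.14 ± 0.23), least. Prc1 shares many reads with other places in the genome: 52.9% were uniquely placed. Summed per length over all 23 mitotic genes, the level was 6.12 to 7.22 TPM in controls and 85.0 to 136 TPM in NASH vehicle livers.

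Genes that brake the cycle rose beside those that drive it. Cdkn1a, which encodes the CDK inhibitor p21 and is a target of p53, read 12.6, 18.6, 12.3 and 10.8 CPM in controls and 51.8, 66.5, 68.4 and 100.4 CPM in NASH vehicle livers (2.40 ± 0.29, adjusted p = 2.3e-05). Cdkn2c, the gene of p18, an inhibitor of CDK4 and CDK6, went from 6.91, 4.8, 5.44 and 6.98 to 19.2, 19.1, 15.5 and 19.6 CPM (1.60 ± 0.15). For both genes all NASH vehicle livers were above all controls. Cdkn1b, the gene of p27, read 41.1, 24.3, 31.9 and 32.3 against 33.2, 40.9, 38.2 and 42.2 CPM, a difference of 0.25 ± 0.13 that was not called but became 0.39 (adjusted p = 0.012) without control replicate 1, the highest control.

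**Figure D4:**
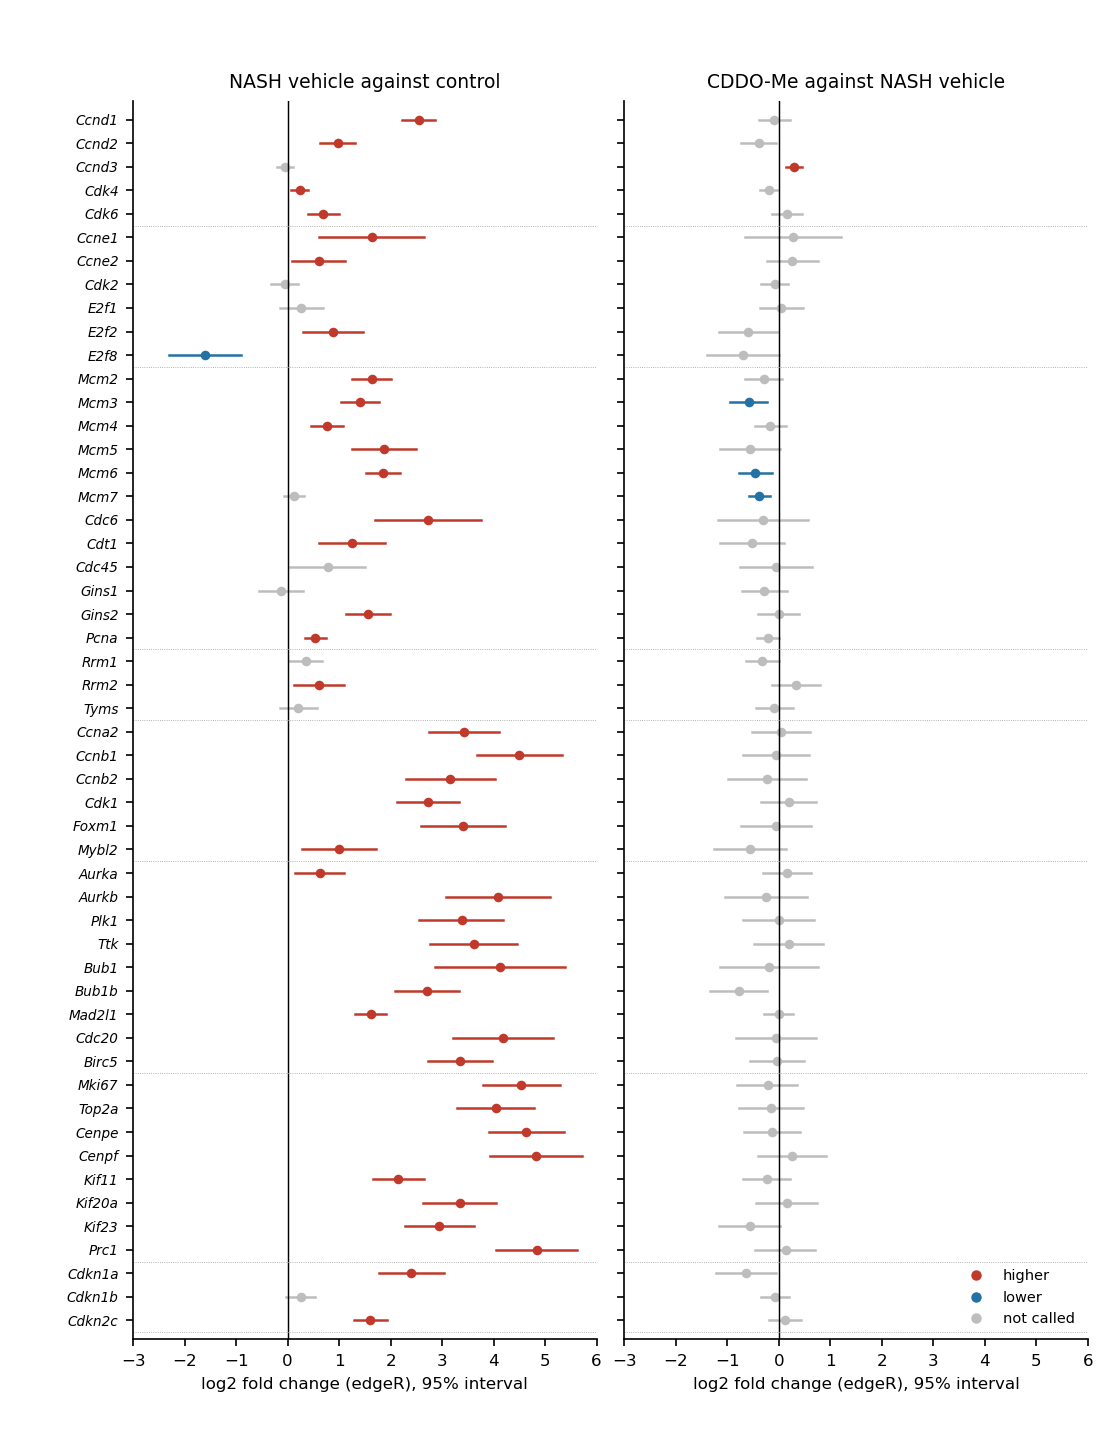
Log2 fold change (point) and 95% interval (line) of each of the 52 genes in 2 comparisons, coloured by the edgeR call; dotted lines separate the roles. In NASH vehicle against control all mitotic genes lie to the right of 0, and in CDDO-Me against NASH vehicle 48 of 52 genes are not called.

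Promoters were set beside these changes because the mitotic and the replication genes moved by such different amounts. RefSeq (GRCm38.p6) gave a promoter, 250 bases before to 50 after the annotated start, for 42 of the 52 genes, and both strands were searched for 3 kinds of word. The cell cycle genes homology region, CHR, is the contact of the DREAM and MuvB complexes and was searched as TTTGAA or TTCGAA. A CHR word was held by 14 of 19 mitotic genes (73.7%), 5 of 20 G1/S and replication genes (25%) and 21.7% of all genes with a promoter in the table. CCAAT, the word bound by NF-Y, was held by 16 of 19 mitotic genes, 13 of 20 G1/S and replication genes and 41.1% of all genes. An E2F word (TTTGGCGC, TTTCGCGC, TTTCCCGC or TTTGCCGC) was held by 1 of 19 mitotic genes, 8 of 20 G1/S and replication genes and 2.6% of all genes. The 6 genes of 9 with an E2F word in the licensing and fork role made up most of the latter. Over the 250 bases before the start alone, CHR was held by 8 of 19 mitotic genes and E2F by 5 of 20 G1/S and replication genes, so many of the words lie just past the annotated start. Words of 6 letters occur often, the E2F words and their reverse complements can overlap each other, and a match is a description of letters only.

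**Figure D5:**
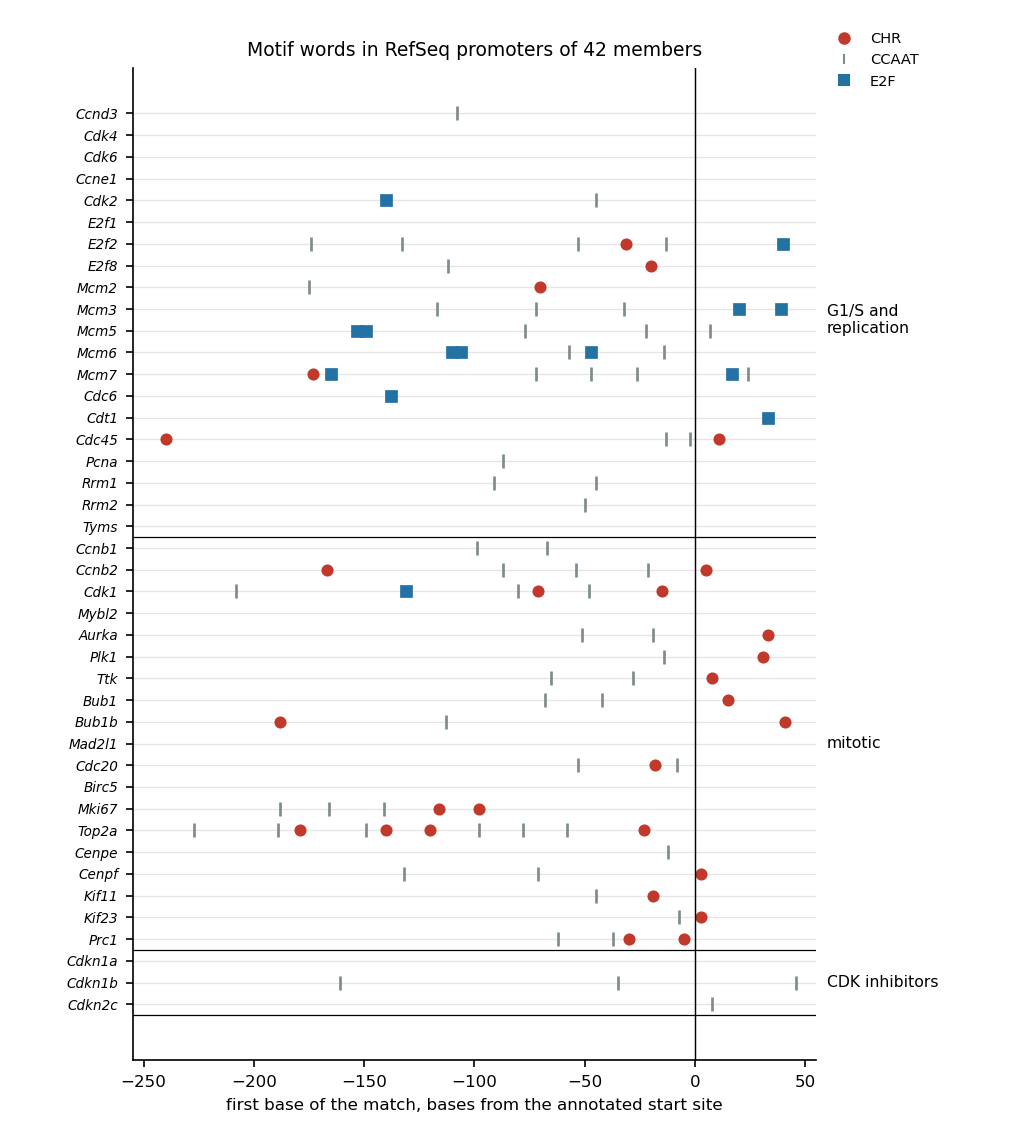
Position of each motif word (first base, in bases from the annotated start site) in all RefSeq promoters of the 42 genes that have one: red circles CHR, grey ticks CCAAT, blue squares E2F. Red circles fall mostly among the mitotic genes and blue squares among the G1/S and replication genes.

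The first 5 promoters, all of mitotic genes, are shown because 4 of them carry CHR and CCAAT words together while the Ccnb1 promoter has CCAAT words and no CHR letters. Each line gives the 160 bases before the start, 5′ to 3′ on the strand of the gene, with CHR, CCAAT and E2F words or their reverse complements in capitals.
Mki67 (chr7:135716380-135716539, minus strand): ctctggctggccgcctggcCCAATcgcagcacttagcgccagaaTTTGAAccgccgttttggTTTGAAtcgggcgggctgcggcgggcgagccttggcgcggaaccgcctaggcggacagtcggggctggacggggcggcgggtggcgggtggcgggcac
Top2a (chr11:99024190-99024349, minus strand): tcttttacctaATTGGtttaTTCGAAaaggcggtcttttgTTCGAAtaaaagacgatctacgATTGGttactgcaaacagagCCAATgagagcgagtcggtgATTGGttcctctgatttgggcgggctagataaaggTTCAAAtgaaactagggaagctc
Cdk1 (chr10:69352913-69353072, minus strand): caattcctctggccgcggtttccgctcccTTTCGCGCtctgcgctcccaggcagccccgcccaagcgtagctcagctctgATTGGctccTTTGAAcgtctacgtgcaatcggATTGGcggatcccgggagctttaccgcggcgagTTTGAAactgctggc
Cdc20 (chr4:118437344-118437503, minus strand): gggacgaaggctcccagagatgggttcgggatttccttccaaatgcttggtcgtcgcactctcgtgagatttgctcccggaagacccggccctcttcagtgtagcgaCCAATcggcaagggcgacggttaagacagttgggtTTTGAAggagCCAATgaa
Ccnb1 (chr13:100786487-100786646, minus strand): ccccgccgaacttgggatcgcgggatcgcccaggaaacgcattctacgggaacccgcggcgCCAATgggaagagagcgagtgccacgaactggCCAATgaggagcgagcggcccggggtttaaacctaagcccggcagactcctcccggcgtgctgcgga

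Of these, Cdk1 was the mitotic gene that also held an E2F word. The following 3 promoters, shown for comparison because their E2F words stand without any CHR word, belong to genes of replication licensing.
Mcm5 (chr8:75109349-75109508, plus strand): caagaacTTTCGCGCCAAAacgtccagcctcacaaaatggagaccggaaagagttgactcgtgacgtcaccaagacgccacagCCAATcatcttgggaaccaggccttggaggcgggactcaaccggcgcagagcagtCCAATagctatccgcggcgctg
Mcm6 (chr1:128359706-128359865, minus strand): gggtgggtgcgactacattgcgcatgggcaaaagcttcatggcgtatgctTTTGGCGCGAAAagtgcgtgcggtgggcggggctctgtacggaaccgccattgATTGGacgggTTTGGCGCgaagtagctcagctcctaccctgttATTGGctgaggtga
Cdc6 (chr11:98907991-98908150, plus strand): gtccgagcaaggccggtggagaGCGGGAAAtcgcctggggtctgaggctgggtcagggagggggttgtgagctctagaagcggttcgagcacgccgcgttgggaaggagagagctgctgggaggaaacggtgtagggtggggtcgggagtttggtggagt

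In Mcm5 and Mcm6 the capitals run on where words on opposite strands overlap. Cdkn1a held none of the 3 kinds of word. Its upstream promoter is shown because it contains a pair of ACATGT words 4 bases apart (capitals), which hold the CATG core of p53 half-sites. This pair was searched after the sequence had been seen and was found in 4 of 32851 promoters (0.012%).
Cdkn1a (chr17:29090819-29090978, plus strand): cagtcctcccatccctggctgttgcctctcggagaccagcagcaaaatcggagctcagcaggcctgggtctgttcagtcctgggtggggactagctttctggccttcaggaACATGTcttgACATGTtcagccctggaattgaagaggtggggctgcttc

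With TMM scaling, few of the 52 genes were called different with CDDO-Me treatment. Against NASH vehicle livers 1 gene was higher, 3 were lower and 48 did not pass (edgeR quasi-likelihood test, adjusted p under 0.05), where 9.39% of all tested genes were called higher and 7.24% lower. For the members, 1 of 52 higher was below the share of all genes, and 3 of 52 lower was near it. With library totals 36.8% of all called genes were higher, and on TPM 23.3%, against 56.5% with TMM. With library totals 0 members were higher and 5 lower, beside 926 higher and 1589 lower of 16456 genes. On TPM 0 of 51 tested members were higher and 11 lower, beside 767 higher and 2522 lower of 14755 genes. Under those 2 scalings the share of members called lower was not below that of all genes by any clear margin. The 3 lower genes were all MCM subunits. Mcm7 read 15.9, 17.5, 13.4 and 16.0 CPM in CDDO-Me livers, all below the 4 NASH vehicle livers (-0.38 ± 0.09, adjusted p = 0.014). Mcm3 read 8.35, 6.77, 5.0 and 8.11 CPM, also without overlap (-0.58 ± 0.17, adjusted p = 0.029). Mcm6 read 13, 13.1, 9.45 and 11.6 CPM, with 1 NASH vehicle liver at 12.7 CPM inside that range (-0.46 ± 0.15, adjusted p = 0.048).

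These calls rest on few libraries. Mcm3 was not called without NASH vehicle replicate 2, 3 or 4 or CDDO-Me replicate 2 or 3 (adjusted p = 0.065 to 0.082). The Mcm6 call was lost in 9 of the 12 fits that left out 1 library (adjusted p up to 0.15, without CDDO-Me replicate 3). Mcm7 kept its call in all 12. The other subunits were lower in mean without being called, Mcm5 by -0.56 ± 0.27, Mcm2 by -0.29 ± 0.17 and Mcm4 by -0.17 ± 0.14. The summed TPM of the 6 was 43.6 to 57.6 in NASH vehicle and 23 to 39.2 in CDDO-Me livers. On log2(TPM + 1) all genes leaned the same way, with a median of -0.19 and 767 higher and 2522 lower of 14755. The Mcm7 share of the summed TPM of the 6 stayed at 27.4 ± 1.91%.

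Ccnd3 was the 1 gene called higher with CDDO-Me, at 52.7, 52.7, 54.6 and 55.9 CPM, above all NASH vehicle and all control livers (0.29 ± 0.07 against NASH vehicle, adjusted p = 0.016). The call was lost without NASH vehicle replicate 3 (adjusted p = 0.057), with library totals (log2 fold change 0.14, adjusted p = 0.35) and on TPM (0.12, adjusted p = 0.4). Ccnd1 did not differ beyond its spread (-0.09, 95% interval -0.39 to 0.21), so a change of more than 0.39 downward lies outside its interval.

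No mitotic gene was called in CDDO-Me against NASH vehicle, 0 of 23 by edgeR, beside 9.39% of all tested genes called higher and 7.24% lower. At an unadjusted p under 0.05 there was 1 mitotic gene, a count given with no share of all genes. The median log2 fold change was -0.05 beside -0.01 for all genes. The gene with the unadjusted p was Bub1b, a spindle checkpoint kinase, at 2.95, 3.40, 2.48 and 3.99 CPM against 5.63, 4.75, 5.47 and 6.23 CPM in NASH vehicle livers. Its groups did not overlap, and its difference was -0.78 ± 0.26 (adjusted p = 0.055). Of 25 other settings 13 called it, at adjusted p = 0.0041 to 0.048, among them edgeR on the 8 libraries of the 2 groups (0.014), limma-voom (0.01) and DESeq2 (0.0047). The remaining settings did not call it, with adjusted p up to 0.16, the 2-fold minimum aside. On TPM, Kif23 was called too (-0.45, adjusted p = 0.041). Mki67 in CDDO-Me livers read 16.9, 23.8, 10.2 and 17.2 CPM, a difference of -0.22 (95% interval -0.81 to 0.36). Top2a read 11.4, 20.8, 9.52 and 14.6 CPM (-0.16, interval -0.77 to 0.46), and Ccnb1 read 5.08, 9.13, 4.27 and 7.11 CPM (-0.05, interval -0.69 to 0.58). CDDO-Me replicate 2 is high and replicate 3 low in all 3 genes. Cdk1 read 7.82, 14.4, 6.31 and 8.11 CPM (0.19), Ccna2 8.06, 10.1, 5.44 and 8.75 CPM (0.04) and Foxm1 4.26, 6.14, 1.97 and 3.99 CPM (-0.06).

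Of the CDK inhibitors, Cdkn1a stood at 25.8, 56.3, 59.8 and 42.7 CPM with CDDO-Me, partly inside the NASH vehicle range of 51.8 to 100.4 CPM. Its difference of -0.64 ± 0.27 was not called (adjusted p = 0.13) and was called at -0.83 with library totals. Cdkn2c stood at 19, 24.3, 20.1 and 16.3 CPM (0.12 ± 0.14) and Cdkn1b at 38.4, 34, 37.0 and 37.2 CPM (-0.08 ± 0.13).

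Against control livers, CDDO-Me livers had 39 genes higher, 2 lower and 11 not called, where 26.2% of all genes were higher and 23.6% lower. Of all called genes 52.7% were higher with TMM, 88.5% with library totals and 91.6% on TPM. This comparison shares its CDDO-Me libraries with the comparison above and its controls with that of NASH vehicle. Of the mitotic genes 22 of 23 were higher, with a median of 3.47. Mybl2, at 1.12, 0.772, 0.912 and 0.746 CPM, was the mitotic gene not called (0.44 ± 0.34). Cenpf (5.08 ± 0.42), Prc1 (4.96 ± 0.37) and Cenpe (4.51 ± 0.34) were the largest, and Mki67 stood at 4.31 ± 0.34. Of the G1/S and replication genes 15 of 26 were higher, led by Ccnd1 (2.47 ± 0.15) and Cdc6 (2.41 ± 0.48). The lower genes were E2f8 (-2.30 ± 0.33, adjusted p = 8.7e-05) and Mcm7 (-0.26 ± 0.09, adjusted p = 0.032). The Mcm7 call was lost in 6 of the 8 fits without 1 library of either group (adjusted p up to 0.091), and its sign turned with library totals (0.21) and on TPM (0.28).

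Within a group the mitotic genes tended to be high or low in the same livers. How often each liver was highest or lowest over all genes was not counted, so this order is not shown to be particular to them. NASH vehicle replicate 4 had the highest CPM of its group in 16 of 23 mitotic genes and replicate 2 the lowest in 15. CDDO-Me replicate 2 was highest in 19 and replicate 3 lowest in 21. The summed mitotic TPM of those 2 CDDO-Me livers was 119 and 51.9, the widest gap within a group, while the controls spanned 6.12 to 7.22. Among G1/S and replication genes of CDDO-Me livers, replicate 3 was again lowest most often, in 17 of 26, while replicate 1 was highest in 11 and replicate 2 in 8. In NASH vehicle livers replicate 4 was again highest most often, in 13 of 26, while replicate 1 was lowest in 12 and replicate 2 in 7.

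Markers of other cells moved beside these genes. For the counts of markers that follow, 29.6% of all tested genes were called higher and 30.0% lower in NASH vehicle livers. With CDDO-Me the shares were 9.39% and 7.24%. Macrophage markers, all 12 of them called higher with the diet, went from a summed 129 to 260 TPM to 2750 to 6038 TPM in NASH vehicle livers, and 8 of 12 fell with CDDO-Me, to 1292 to 3043 TPM. The median log2 fold change with CDDO-Me was -1.16 for these markers and -0.05 for the mitotic genes. In NASH vehicle livers 1 to 4 the macrophage sums were 2750, 5152, 5748 and 6038 TPM beside mitotic sums of 114, 85.0, 108 and 136 TPM. In CDDO-Me livers 1 to 4 they were 2174, 1292, 1416 and 3043 TPM beside 88.2, 119, 51.9 and 106 TPM. T and NK cell markers (10 of 12 higher in NASH vehicle, 4 lower with CDDO-Me) were summed at 2.20 to 4.5, 13.3 to 35.9 and 8.18 to 13.1 TPM in the 3 groups. Stellate cell and fibroblast markers (9 of 10 higher, then 6 lower) were summed at 67.6 to 131, 650 to 1143 and 279 to 675 TPM. Hepatocyte markers, 12 of 12 called lower in NASH vehicle, were summed at 80740 to 91474, 62962 to 85574 and 58957 to 71061 TPM, the highest sums of any marker list in every group. Cholangiocyte markers (4 of 8 higher, then 1 lower) were summed at 43.7 to 319, 794 to 1986 and 546 to 1647 TPM, with control replicate 3 the highest control.

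Of 5 tested neutrophil markers all 5 rose, with sums of 1.13 to 2.66, 25.2 to 41.6 and 20.4 to 32.2 TPM and Ly6g at 0 in every control. B and plasma cell markers (0 of 6 called in NASH vehicle) were summed at 1.97 to 5.79, 6.19 to 9.65 and 7.49 to 14.1 TPM. Endothelial markers (6 of 9 lower, then 6 higher) were summed at 70.1 to 92.4, 60.3 to 88.0 and 99.9 to 139 TPM. Erythroid precursor markers (3 of 5 lower) were summed at 108 to 231, 74.2 to 272 and 110 to 170 TPM, with Gata1 listed at 0 in every control and NASH vehicle liver. Smooth muscle markers (0 of 6 called) were summed at 11.6 to 355, 82.7 to 111 and 29.0 to 214 TPM, with control replicate 3 and CDDO-Me replicate 4 the highest of their groups. Without those 2 libraries 40 members were higher and 1 lower in NASH vehicle against control, and 1 higher and 3 lower with CDDO-Me. The lower genes were not the same ones. In that edgeR fit Mcm6 lost its call (adjusted p = 0.055) and the mitotic gene Bub1b was called lower (-0.90, adjusted p = 0.0096). Shares of all genes called in that fit are not given here. The part of these cells in the member genes was not tested.

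Other genes of the cycle, outside the 52, were read from lists of the same roles. Beside their counts, 29.6% of all tested genes were called higher and 30.0% lower in NASH vehicle livers. With CDDO-Me these shares were 9.39% and 7.24%. Of 41 other mitotic genes 34 rose and 4 fell in NASH vehicle livers, with a median of 2.52, among them Racgap1 of the central spindle (4.42 ± 0.32) and Dlgap5 of the spindle (4.06 ± 0.32). With CDDO-Me 1 of the 41 rose, Pttg1, the gene of securin (0.56 ± 0.11, from 17.9 ± 2.20 to 26.4 ± 1.96 CPM), and 1 fell, Mad1l1 (-0.38 ± 0.11). Of 32 origin and fork genes 10 rose and 6 fell in NASH vehicle livers and the median was 0.11, near that of all genes. Lig1, the ligase of Okazaki fragments, rose by 1.48 ± 0.20, and Mcm10, which helps to fire origins, fell from 104 ± 42.7 to 23.1 ± 8.21 CPM (-2.16 ± 0.32). Of those 32, Mcm8 rose (0.70 ± 0.20) and Fen1 fell (-0.53 ± 0.17) with CDDO-Me.

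Of 18 genes of nucleotide supply, chromatin assembly and the S-phase checkpoint 12 rose and 3 fell in NASH vehicle livers. Uhrf1, which carries DNA methylation through replication, rose by 3.62 ± 0.39. Tk1, thymidine kinase, fell from 34.7 ± 4.52 to 9.79 ± 1.91 CPM (-1.82 ± 0.17), but only 38.4% of its reads were uniquely placed and it overlaps Afmid on the other strand. With CDDO-Me 2 of the 18 rose, among them the chromatin assembly gene Chaf1a (0.84 ± 0.23), and 1 fell, the maintenance methyltransferase gene Dnmt1 (-0.64 ± 0.12, from 24.8 ± 2.80 to 15.9 ± 1.85 CPM). Of 15 RB, E2F and DREAM regulators 3 rose and 5 fell in NASH vehicle livers, and with CDDO-Me 2 rose, E2f6 (0.43 ± 0.10) and Tfdp1 (0.33 ± 0.10), and 1 fell. These counts are near the shares of all genes, 29.6% higher and 30.0% lower, then 9.39% and 7.24%. The counts of the 18 genes with CDDO-Me are near them too. The retinoblastoma relatives went apart: Rbl1 rose by 1.87 ± 0.22 and Rbl2 fell by -0.54 ± 0.08. Mybl1, a relative of Mybl2, went from 0.443 ± 0.339 to 12.6 ± 3.53 CPM (4.78 ± 0.46) and down to 4.14 ± 1.67 CPM with CDDO-Me (-1.60 ± 0.37, adjusted p = 0.011).

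Targets of p53 other than Cdkn1a were read as well. Of 15 such genes 14 rose in NASH vehicle livers and 6 fell with CDDO-Me, with medians of 0.65 and -0.34. Of all tested genes 29.6% rose in NASH vehicle livers and 7.24% fell with CDDO-Me. Phlda3, a p53-induced repressor of AKT, went from 1.83 ± 0.301 to 17.8 ± 4.35 CPM and then 8.56 ± 1.38 CPM (3.28 ± 0.21, then -1.05 ± 0.19). Plk2 (-0.60 ± 0.14), Zmat3 (-0.45 ± 0.11) and the apoptosis gene Bbc3 (-0.61 ± 0.15) also fell with CDDO-Me. Of 4 other CDK inhibitor genes Cdkn1c, the gene of p57, rose by 1.55 ± 0.24, and Cdkn2a, Cdkn2b and Cdkn2d were not called.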

How the data were processed

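Poly(A) RNA of 12 livers was sequenced (NEBNext Ultra II RNA kit, 75 bp paired ends, NextSeq), per the labels' protocols. The deposited count columns hold whole numbers of reads per gene, split by placement and by exon, intron or splice junction. The column of all gene reads was tested. The authors also deposited TPM, used here where levels of different genes were set side by side, and RPKM, which was not used. The build was GRCm38, per the submitters' processing notes. No source used here gives the aligner, the counter or the strand. Exons of 17 members overlap another gene on the other strand. Besides those named above they include Ccnd1, Ccnd2, Cdk6, Cdk2, Cdc45, Gins2, Ccna2, Plk1, Cdc20, Kif20a, Prc1 and Cdkn1a.

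Genes were kept by filterByExpr (minimum count 10, minimum total 15), scaled by TMM and fitted in edgeR 4.0.16 (R 4.3.3) with 1 mean per group over 12 libraries, robust quasi-likelihood and Benjamini-Hochberg adjustment at 0.05. SE was derived from the F statistic (log2 fold change over its square root) and gives the 95% intervals. The test was checked on simulated data drawn from the NASH vehicle means in every group, with folds set in chosen genes. That check does not bear on the choice of scaling. DESeq2 1.42.0 and limma 3.58.1 served as alternatives. Libraries of the same replicate number did not deviate together (r -0.22 to 0.19, over 0.1 in 2 of 12 pairs), so no pairing was used. The members and the other gene lists were chosen with earlier results of these data known. Values are given by library for the central genes of each role and every member called in CDDO-Me against NASH vehicle. Other members are given by range and count with the extremes of each role. Of each other list, up to 4 genes of lowest p were named. Alternatives covered scaling, tool, filter, read type, libraries in the fit and a replicate block. Values of some single genes of these lists are not reported here.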

Additional observations from a re-analysis of the deposited data

Results flagged for a closer look

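In groups of 4 livers, 1 library stood apart from the other 3 in 8 of 156 groups of values (52 genes, 3 groups), about the 1 in 20 that chance gives. E2f1 was 8.72 CPM in control replicate 2 (others 4.74 to 5.38) and 8.42 CPM in NASH vehicle replicate 3 (others 6.71 to 6.84). Mcm5 was 10.9 CPM in NASH vehicle replicate 4 (others 7.67 to 8.15). Gins1 was 5.01 CPM in NASH vehicle replicate 1 (others 3.38 to 3.55). Cdk1 was 1.61 CPM in control replicate 1 (others 1.04 to 1.11). Plk1 was 7.97 CPM in CDDO-Me replicate 2 (others 3.76 to 4.19). Prc1 was 0.555 CPM, from 15 reads, in control replicate 3 (others 0.179 to 0.192). Cdkn2c was lowest, at 15.5 CPM, in NASH vehicle replicate 3 (others 19.1 to 19.6).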

How the results depend on the processing

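The 42 members higher in NASH vehicle against control stayed at 30 to 51 over 25 other settings, the lowest with a 2-fold minimum, and the 39 higher in CDDO-Me against control at 27 to 48. Both highest counts came with library totals, where 9908 and 8678 of 16456 genes were higher. The counts of few genes moved more. Members lower in NASH vehicle against control were 2 on exon reads and 0 with a 2-fold minimum. Members higher in CDDO-Me against NASH vehicle were 0 with library totals, 0 on TPM, 0 with a 2-fold minimum and 0 to 1 with 1 library left out (0 without NASH vehicle replicate 3). Members lower in CDDO-Me against NASH vehicle were 5 with library totals, 5 by DESeq2, 11 on TPM, 5 with the 8 libraries of the 2 groups, 2 with no filter, 0 with a 2-fold minimum and 1 to 5 with 1 library left out. Beside them, 1589 of 16456 genes were lower with library totals and 2522 of 14755 on TPM. Shares of all genes are not given here for the remaining settings. Members lower in CDDO-Me against control were 1 with library totals, on TPM, with no filter, with 8 libraries, on exon reads, with a 2-fold minimum and with 10 libraries, and 1 to 2 with 1 library left out. With the replicate number as a block the counts were 41 higher and 1 lower, 1 higher and 1 lower, and 39 higher and 1 lower in the 3 comparisons. Signs turned with library totals and on TPM for Ccnd3 (0.58, 0.47), Cdk2 (0.57, 0.60) and Gins1 (0.49, 0.45) in NASH vehicle against control, and for Mcm7 (0.21, 0.28) in CDDO-Me against control. TMM places the typical gene near no change, and those 2 scalings do not. With library totals and on TPM the median of all genes was 0.62 and 0.58 in NASH vehicle against control. It was 0.51 and 0.43 in CDDO-Me against control. These signs therefore depend on which scaling holds, which was not tested. Low counts limit the 13 members below 1 CPM in every control: Ccne1, Cdc6, Ccnb1, Foxm1, Aurkb, Plk1, Ttk, Bub1, Birc5, Cenpe, Cenpf, Kif23 and Prc1. Over the alternatives the rise of Prc1 in NASH vehicle ran from 1.91 to 5.45 and that of Cenpf from 1.03 to 5.45, both lowest on log2(TPM + 1).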

Other observations

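Signals that start hepatocyte cycling were read from a list of 15 genes, of which 14 were tested. In NASH vehicle against control 5 rose and 3 fell, beside 29.6% and 30.0% of all tested genes. With CDDO-Me 2 rose and 3 fell, beside 9.39% and 7.24%. Tgfa, a ligand of the EGF receptor, rose from 26.5 ± 1.36 to 40.3 ± 2.80 CPM and again to 52.7 ± 2.17 CPM with CDDO-Me (0.61 ± 0.07, then 0.39 ± 0.07). Btc, another such ligand, went from 2.10 ± 1.12 to 9.25 ± 1.02 CPM and 5.51 ± 0.467 CPM. The receptor gene Egfr was 498 ± 179 CPM in controls, 161 ± 103 CPM in NASH vehicle and 62.7 ± 9.34 CPM in CDDO-Me livers. In CDDO-Me livers it was called lower than in NASH vehicle (-1.36 ± 0.37, edgeR quasi-likelihood adjusted p = 0.027) and than in controls (-2.99 ± 0.39, adjusted p = 7.1e-05). Met, the receptor of hepatocyte growth factor, fell from 81.7 ± 4.01 to 56.4 ± 6.68 CPM in NASH vehicle livers and was 78.9 ± 2.78 CPM with CDDO-Me (0.48 ± 0.09, adjusted p = 0.0021). Its ligand gene Hgf stood at 7.14 ± 2.44, 19.4 ± 4.76 and 10.6 ± 1.41 CPM in the 3 groups and fell with CDDO-Me (-0.87 ± 0.24, adjusted p = 0.026).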
